A study of Mus musculus with 6 samples.

Results

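The 10 genes described here are *Atf4*, *Ddit3*, *Asns*, *Trib3*, *Chac1*, *Psat1*, *Phgdh*, *Shmt2*, *Sesn2* and *Slc7a11*, the transcription factor of the amino acid response and genes it is known to control. They were taken by symbol from a table of RNA-seq read counts for 55385 genes in mouse embryonic stem cells (mESCs), where they fill 11 rows. All 10 genes were among the 16951 genes with enough counts to test. The count table holds 2 libraries each of wild-type (WT) mESCs, mESCs with a heterozygous deletion at *Wnt6* and mESCs with a homozygous deletion at *Wnt6*, a region that anchors long-range contacts of Polycomb-marked chromatin. Per the study's methods, the parental line was G4, a hybrid of the 129/Sv and C57BL/6 strains, and the deletions were made with CRISPR-Cas9 and a pair of guide RNAs in clones screened by PCR. All 3 genotypes were grown in the same way, in Knockout DMEM with LIF on a layer of CD1 feeder cells, and no other treatment was given. The labels do not say whether the 2 libraries of a genotype came from separate clones or cultures. The p-values therefore measure the spread between these libraries, which may be technical.

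ATF4 is a transcription factor whose translation rises when kinases such as GCN2, a sensor of uncharged tRNA, or PERK, a sensor of unfolded protein in the endoplasmic reticulum, phosphorylate the initiation factor eIF2. It binds amino acid response elements, often together with C/EBP proteins, and switches on enzymes that make non-essential amino acids, amino acid transporters and aminoacyl-tRNA synthetases. Under lasting stress it also raises CHOP (the product of *Ddit3*), the pseudokinase TRIB3 and the glutathione-degrading enzyme CHAC1. Because ATF4 is controlled largely at translation, the amount of its mRNA is not a measure of its protein. Serine and glycine made by these enzymes feed one-carbon metabolism and nucleotide synthesis, which dividing stem cells use heavily.

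The element that C/EBP and ATF4 proteins bind together was searched for at the start sites of the 10 genes, as the letters TGATGNAA on either strand. The windows run from 250 bases before to 50 bases after each RefSeq start on GRCm38.p6. It was found for 4 of the 10 genes, which have 11 windows because *Psat1* has 2, and for 4.51% of all 27025 gene symbols. The stretches from the 4 genes are shown because 1 belongs to a gene that rose in the homozygous deletion and 3 belong to genes that did not pass the test. Each is printed 5′ to 3′ on the strand of its gene, with the matching letters in capitals.
Asns, chr6:7693214-7693243, minus strand: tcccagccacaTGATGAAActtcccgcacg
Slc7a11, chr3:50443651-50443680, minus strand: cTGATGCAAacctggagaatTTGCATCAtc
Chac1, chr2:119351038-119351067, plus strand: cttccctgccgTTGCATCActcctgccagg
Trib3, chr2:152344028-152344057, minus strand: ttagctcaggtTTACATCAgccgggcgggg
In *Asns* the match lies on the strand of the gene, with its first base 23 bases before the start. *Slc7a11* holds a match on each strand, while in *Chac1* and *Trib3* the letters lie on the strand opposite to the gene, and in *Trib3* they follow the start. The windows of *Atf4*, *Ddit3*, *Psat1*, *Phgdh*, *Shmt2* and *Sesn2* do not hold these letters.

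Library totals ran from 23813912 to 28964706 counts. *Wnt6* itself had 11 and 13 counts in WT, 6 and 4 in the heterozygous and 0 and 0 in the homozygous libraries, in the order of the labels. The paper speaks of genes, in the plural, within this deletion. *Cdk5r2*, also on chromosome 1, had 30 and 27 counts in WT, 16 and 17 in the heterozygous and 1 and 2 in the homozygous libraries. Of 29 fibroblast markers, none was at 0 in all libraries, and their summed level was 5662 to 5724 CPM (counts scaled to a common library size) in WT, 4404 to 4413 in the heterozygous and 3199 to 3228 in the homozygous libraries. Fewer cells with these markers and less marker RNA per cell cannot be told apart in bulk libraries. Nor can feeder cells and mESCs be told apart as the source of this RNA. The summed level of 12 pluripotency markers was 3467 to 3537 CPM in WT, 3151 to 3205 in the heterozygous and 3490 to 3685 in the homozygous libraries, so the cells carried the markers of their label. Genes of chromosome 8 were shifted as a whole: of 890 tested, 547 were higher and 18 lower in the homozygous deletion than in WT, with a median log2 fold change of 0.39. With 1 allele deleted, 4 were higher and 121 lower, with a median of -0.12. None of the 10 genes lies on chromosome 8.

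Levels were first compared between the genes per kilobase of exon, in CPM scaled with TMM factors, which adjust library totals for composition. In WT cells *Atf4* was highest at 146 CPM per kb, followed by *Psat1* at 88.6, *Asns* at 65.8, *Phgdh* at 59.5, *Shmt2* at 51.9 and *Sesn2* at 40.6. *Trib3* was at 15.6, *Chac1* at 7.37, *Ddit3* at 5.99 and *Slc7a11*, the subunit of the cystine/glutamate antiporter that carries transport, at 0.996 CPM per kb. The length used was that of all annotated exons of a gene merged, 13.92 kb for *Slc7a11* and at most 4.254 kb for the others. Without division by length, *Slc7a11* was at 13.9 CPM in WT, above *Chac1* at 12.1 and *Ddit3* at 9.63. The transcription factor and the biosynthetic enzymes thus lay well above the genes tied to lasting stress. The order of the means was the same in all 3 genotypes. Neighbours in that order were separated in both libraries of each genotype, except *Shmt2* and *Sesn2* in the heterozygous deletion, at 44.0 and 43.5 CPM per kb.

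**Figure D1:**
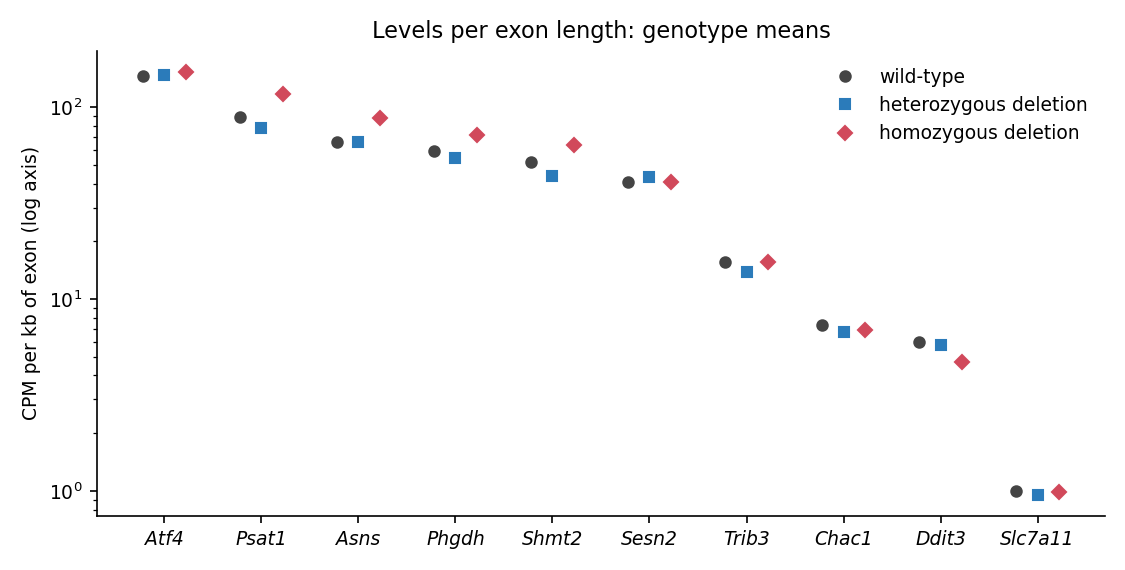
Mean level of each gene in CPM per kilobase of exon (vertical log axis) in WT (circles), heterozygous (squares) and homozygous (diamonds) libraries, 2 libraries per mean. The genes keep 1 order in the 3 genotypes, from *Atf4* (146 CPM per kb in WT) to *Slc7a11* (0.996), and the homozygous means stand above the others from *Psat1* to *Shmt2*.

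To ask whether loss of the *Wnt6* region on both alleles was accompanied by a change in this response, the homozygous libraries were compared with WT. The enzymes that make asparagine, serine and glycine were higher by 1.21-fold to 1.34-fold: *Asns*, *Psat1*, *Phgdh* and *Shmt2* all passed the test, an edgeR quasi-likelihood test at a Benjamini-Hochberg adjusted p under 0.05 over all 16951 genes. *Ddit3* fell, and the other 5 genes did not pass. Among all genes tested, 10.9% were higher and 10.5% lower by the same test. None of the 10 genes also exceeded an absolute log2 fold change of 1, which 2.14% of all genes did. The median log2 fold change of the 10 genes was 0.033, against -0.0061 for all genes. With library totals alone as the scale, 1183 genes were higher and 2525 lower, in place of 1847 and 1786, while the 10 genes gave the same 4 higher and 1 lower.

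*Asns* encodes asparagine synthetase, which makes asparagine from aspartate and glutamine and is a standard readout of ATF4. It lies on chromosome 6 of GRCm38, 7675169 to 7693254, on the minus strand. Its level was 175 and 185 CPM in the WT libraries, 178 and 182 in the heterozygous and 248 and 234 in the homozygous libraries. Both homozygous libraries lay above all 4 others, which overlapped. Relative to WT the log2 fold change was 0.42 (SE 0.0452, adjusted p = 8.1e-07) in the homozygous deletion and 0.00084 (adjusted p = 0.997), with a 95% interval of -0.09 to 0.10, in the heterozygous deletion.

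*Psat1* encodes phosphoserine aminotransferase, the middle step from 3-phosphoglycerate to serine, and lies on chromosome 19, 15904678 to 15947337, minus strand. Its level was 368 and 386 CPM in WT, 328 and 337 in the heterozygous and 513 and 487 in the homozygous libraries. The 3 genotypes did not overlap, with the heterozygous libraries lowest. The homozygous level was 1.33-fold that of WT, a log2 fold change of 0.41 (SE 0.0428, adjusted p = 5.9e-07).

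*Phgdh* encodes phosphoglycerate dehydrogenase, the entry into serine synthesis, and lies on chromosome 3, 98313170 to 98339990, minus strand. Its level was 146 and 150 CPM in WT, 142 and 128 in the heterozygous and 187 and 172 in the homozygous libraries. The homozygous libraries were again above all others, at 1.21-fold the WT level (log2 fold change 0.27, SE 0.0524, adjusted p = 0.000645). The pseudogene *Phgdh-ps1*, a possible taker of its reads, had between 6 and 15 counts per library against at least 3403 for *Phgdh*.

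*Shmt2* encodes the mitochondrial serine hydroxymethyltransferase, which turns serine into glycine and passes a carbon unit to folate. It lies on chromosome 10, 127517123 to 127522444, minus strand. Its level was 162 and 161 CPM in WT, 143 and 131 in the heterozygous and 200 and 194 in the homozygous libraries. As for *Psat1*, the genotypes did not overlap and the heterozygous libraries were lowest. The homozygous level was 1.22-fold that of WT (log2 fold change 0.29, SE 0.0464, adjusted p = 0.000128). All 4 enzymes passed in the homozygous deletion under every alternative run, with the log2 fold change between 0.36 and 0.47 for *Asns*, 0.35 and 0.45 for *Psat1*, 0.21 and 0.34 for *Phgdh*, and 0.23 and 0.31 for *Shmt2*. Fibroblast markers fell in the same comparison (26 of 27 tested were lower, median log2 fold change -1.07), and their part in these rises was not tested.

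**Figure D2:**
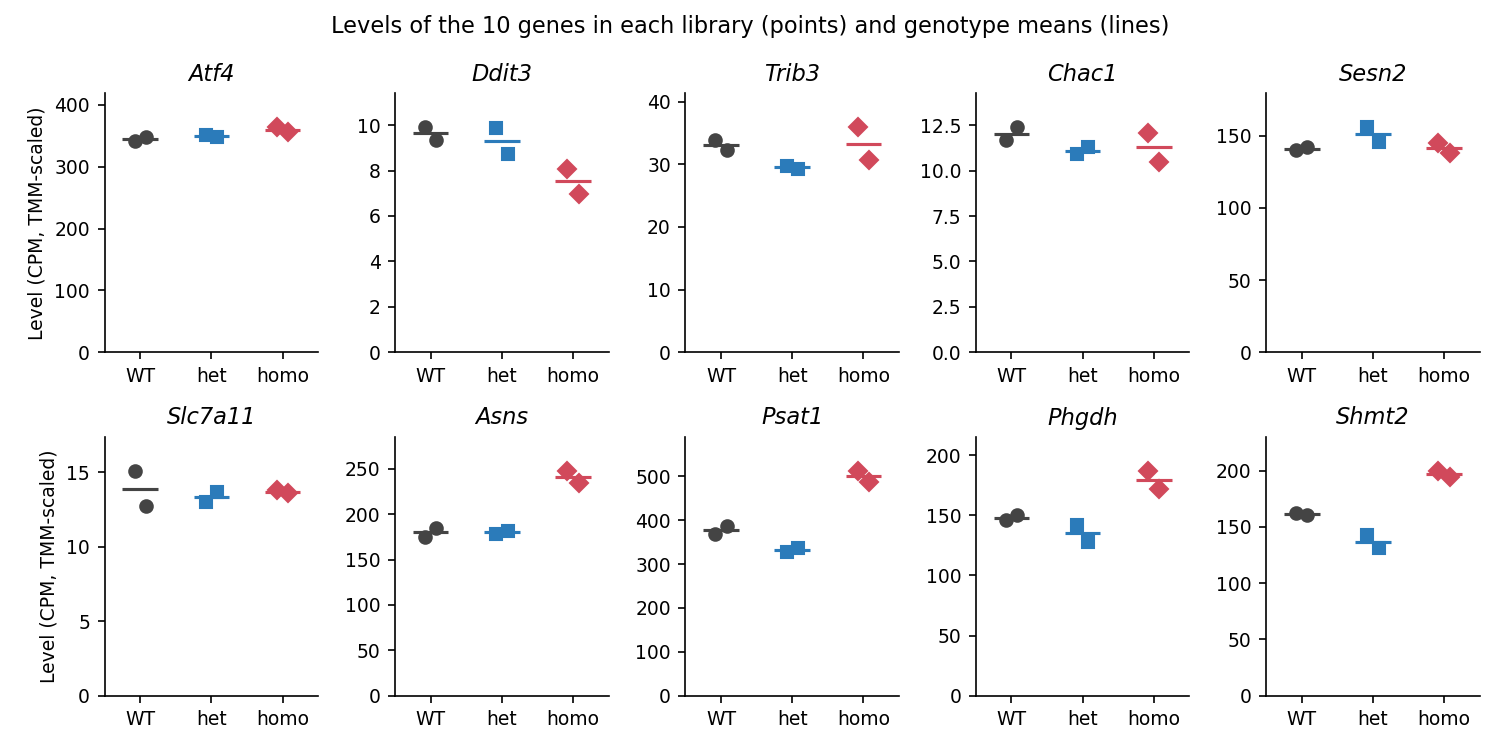
Level of each gene in every library (vertical axis, CPM scaled with TMM factors, from 0 in each panel) for WT, heterozygous (het) and homozygous (homo) deletion; points are libraries and lines genotype means. The homozygous libraries stand apart for *Asns*, *Psat1*, *Phgdh* and *Shmt2* (248 and 234 CPM against at most 185 for *Asns*), whereas those of *Trib3*, *Chac1*, *Sesn2* and *Slc7a11* overlap WT.

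The mRNA of *Atf4* itself (chromosome 15, 80255184 to 80257541, plus strand) moved little. Its level was 341 and 349 CPM in WT, 351 and 348 in the heterozygous and 364 and 356 in the homozygous libraries. The homozygous libraries were the highest, yet by a log2 fold change of 0.061 from WT, with a 95% interval of -0.02 to 0.15 and an adjusted p of 0.317. In the heterozygous deletion it was 0.02 (interval -0.06 to 0.10, adjusted p = 0.877). A change of the size seen for the 4 enzymes lies outside both intervals.

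*Ddit3*, which encodes the stress factor CHOP, went the other way from the enzymes. It lies on chromosome 10, 127290774 to 127296288, plus strand. Its level was 9.91 and 9.36 CPM in WT, 9.89 and 8.72 in the heterozygous and 8.08 and 6.96 in the homozygous libraries, from 181 to 291 counts. The homozygous libraries were the lowest, and the other genotypes overlapped. In the homozygous deletion its log2 fold change from WT was -0.36 (SE 0.113, adjusted p = 0.0253), and its level dropped by 22.3%. This call was lost with DESeq2 (adjusted p = 0.153), without WT replicate 1 (0.183), without WT replicate 2 (0.0744) and without homozygous replicate 2 (0.185). Another row under the symbol *Ddit3*, 105 exon bases that all lie inside this gene, was listed at 0 in every library. Of the exon bases of *Ddit3*, 4.73% are shared with genes on the opposite strand, and the strand setting of the counting is not given in the sources used here.

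*Trib3* (chromosome 2, 152337422 to 152344032, minus strand) encodes a pseudokinase induced by ATF4 and CHOP that restrains AKT and ATF4. Its level was 33.9 and 32.3 CPM in WT, 29.7 and 29.3 in the heterozygous and 35.9 and 30.7 in the homozygous libraries. The 2 homozygous libraries lay on either side of WT, and the heterozygous libraries were the lowest. The log2 fold change from WT was 0.0014 (interval -0.15 to 0.15, adjusted p = 0.993) in the homozygous and -0.17 (interval -0.32 to -0.02, adjusted p = 0.238) in the heterozygous deletion.

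*Chac1* (chromosome 2, 119351229 to 119354381, plus strand), which degrades glutathione, was at 11.7 and 12.4 CPM in WT, 10.9 and 11.3 in the heterozygous and 12.1 and 10.5 in the homozygous libraries. The homozygous libraries spanned most of the range of the others. Neither deletion passed the test, at -0.097 (adjusted p = 0.54) in the homozygous and -0.12 (adjusted p = 0.602) in the heterozygous deletion on the log2 scale.

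*Sesn2* (chromosome 4, 132492032 to 132510501, minus strand) encodes a leucine sensor that holds back mTORC1 through GATOR2. Its level was 140 and 142 CPM in WT, 156 and 146 in the heterozygous and 145 and 138 in the homozygous libraries. The heterozygous libraries were highest, at a log2 fold change of 0.1 from WT that did not pass the test (adjusted p = 0.294). In the homozygous deletion the value was 0.0038 (interval -0.09 to 0.10, adjusted p = 0.969).

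*Slc7a11* (chromosome 3, 49892526 to 50443614, minus strand) brings in cystine for glutathione synthesis. Its level was 15.1 and 12.7 CPM in WT, 13.0 and 13.7 in the heterozygous and 13.8 and 13.6 in the homozygous libraries. The WT libraries lay on either side of all deletion libraries. Its log2 fold change was -0.02 (interval -0.22 to 0.18, adjusted p = 0.912) in the homozygous and -0.061 (interval -0.26 to 0.14, adjusted p = 0.827) in the heterozygous deletion, so that a change as large as that of *Asns* or *Psat1* lies outside the interval.

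In the heterozygous deletion, 2 of the 10 genes fell and none rose by the same test. *Shmt2* fell by 0.24 on the log2 scale (SE 0.0471, adjusted p = 0.00336), or 15.4%, and *Psat1* dropped by 11.8%, a log2 fold change of -0.18 (SE 0.043, adjusted p = 0.0157). *Phgdh* was also below WT in both libraries, at -0.13 (interval -0.24 to -0.02), but did not pass (adjusted p = 0.186). Of all genes tested, 2.91% were lower and 2.23% higher, and 0.165% passed with an absolute log2 fold change above 1, none of the 10 among them. The median over the 10 genes was -0.09. At an unadjusted p under 0.05 there were 5 of the 10, *Sesn2* higher and the others lower, beside 2757 of all 16951 genes. DESeq2 also gave 2 lower and 0 higher of the 10, beside 284 lower and 198 higher of all genes. The *Psat1* call was lost without WT replicate 2 (-0.15, adjusted p = 0.273), heterozygous replicate 1 (-0.16, 0.146) or heterozygous replicate 2 (-0.20, 0.0811). The *Shmt2* call was lost without WT replicate 1 (-0.24, adjusted p = 0.0512) or heterozygous replicate 2 (-0.18, 0.125). Of the 12 pluripotency markers, 7 were lower in this comparison with a median log2 fold change of -0.19, and 21 of 27 fibroblast markers were lower with a median of -0.48. Their part in the falls was not tested.

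The homozygous and heterozygous libraries were then compared directly. The 4 enzymes were higher in the homozygous deletion, *Psat1* by 1.5-fold (log2 fold change 0.59, SE 0.043, adjusted p = 3.67e-09), *Shmt2* by 1.44-fold (0.53, SE 0.047, adjusted p = 5.33e-08), *Asns* by 1.34-fold (0.42, adjusted p = 7.81e-07) and *Phgdh* by 1.33-fold (0.41, SE 0.0528, adjusted p = 7.85e-06). *Ddit3* did not quite pass at -0.31 (SE 0.114, adjusted p = 0.0528), though it passed in 5 of the 14 alternatives, among them at least 1 CPM in 2 libraries (adjusted p = 0.0481) and robust estimation (adjusted p = 0.0479). *Trib3* was at 0.17 (interval 0.02 to 0.32, adjusted p = 0.0968). *Atf4* was at 0.042 (interval -0.04 to 0.13, adjusted p = 0.486). Among all genes tested, 12.9% were higher and 12.9% lower, and 1.39% passed with an absolute log2 fold change above 1, which none of the 10 did. At an unadjusted p under 0.05 there were 6 of the 10, *Ddit3* lower and the others higher, beside 6257 of all 16951 genes. DESeq2 gave 4 higher and 0 lower of the 10, beside 1626 higher and 1135 lower of all genes. With library totals alone as the scale, *Ddit3* (adjusted p = 0.0204) and *Sesn2* were also called lower, which made 4 higher and 2 lower of the 10, and 1391 genes higher and 3340 lower in place of 2191 and 2180. Without homozygous replicate 1, *Ddit3* passed at -0.42 (adjusted p = 0.0258), and without homozygous replicate 2, *Trib3* passed at 0.28 (adjusted p = 0.00683). In this comparison 24 of 27 fibroblast markers were lower (median -0.55), 10 of 12 pluripotency markers were higher (median 0.19) and 585 of 890 chromosome 8 genes were higher (median 0.51), and their part in the differences was not tested. It shares its libraries with the comparisons above.

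**Figure D3:**
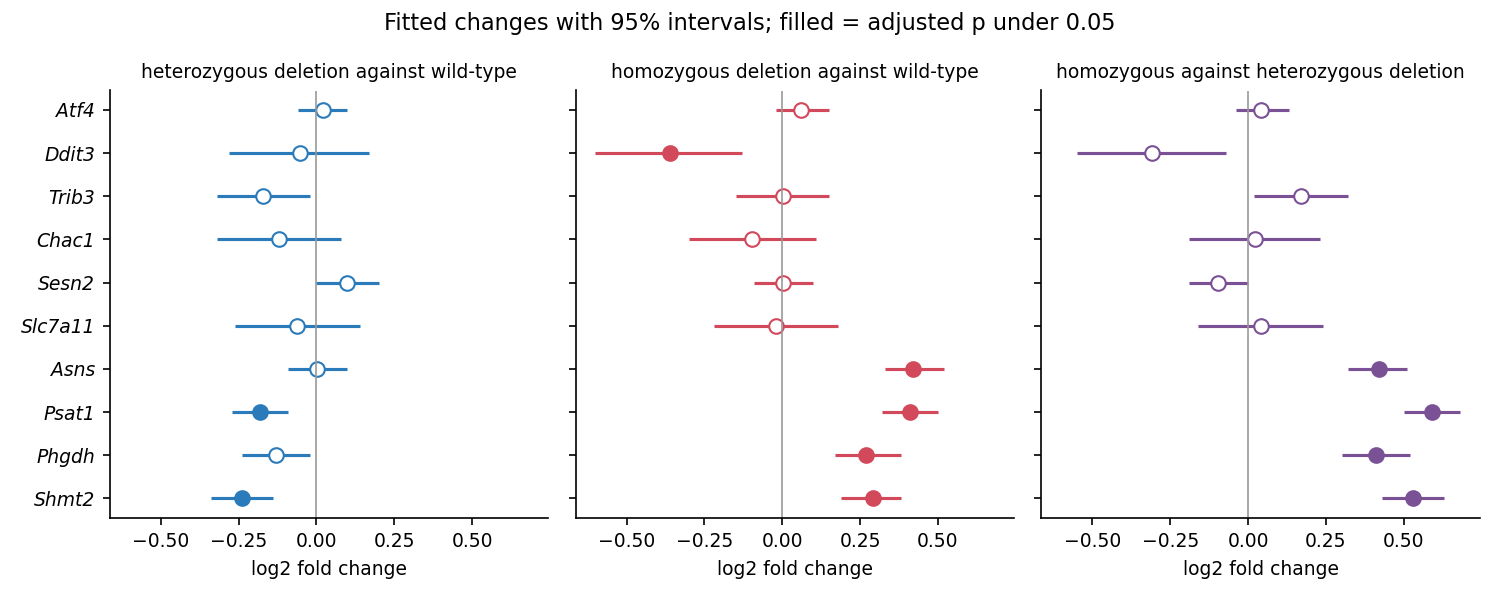
Fitted log2 fold change (horizontal axis) of each gene with its 95% interval in the 3 comparisons, from the edgeR fit of all 6 libraries; filled points have an adjusted p under 0.05. In the homozygous deletion *Asns*, *Psat1*, *Phgdh* and *Shmt2* lie at 0.27 to 0.42 against WT and at 0.41 to 0.59 against the heterozygous deletion, while *Atf4* stays at 0.061 and 0.042.

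The rest of the pathway was read from lists of genes with related functions, whose counts stand beside the 10.9% higher and 10.5% lower of all genes in the homozygous deletion and the 2.23% higher and 2.91% lower in the heterozygous deletion. Next to *Psat1*, *Phgdh* and *Shmt2*, 6 of 11 other serine, glycine and one-carbon enzymes rose in the homozygous deletion and none fell, with a median log2 fold change of 0.25. *Mthfd2*, the mitochondrial folate enzyme that follows SHMT2, rose by 0.40 (adjusted p = 5.65e-06), from 113 and 124 CPM in WT to 160 and 154. *Gcsh*, the lipoyl carrier of the glycine cleavage system, on chromosome 8, rose by 0.42 (adjusted p = 1.04e-06), and *Shmt1*, the cytosolic counterpart of *Shmt2*, by 0.17 (adjusted p = 0.00849). With 1 allele deleted, 1 of the 11 fell and none rose (median -0.082).

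Of 12 other enzymes of non-essential amino acid synthesis, 5 rose and 2 fell (median 0.10). *Got2* and *Gpt2*, mitochondrial transaminases for aspartate and alanine that lie on chromosome 8, rose by 0.46 (adjusted p = 2.05e-07) and 0.40 (adjusted p = 4.32e-05). *Cbs*, which starts the transfer of sulfur from homocysteine to cysteine, fell by 0.29 (adjusted p = 0.00491), and *Ass1*, of arginine synthesis, fell by 0.14 (adjusted p = 0.0405). Of the same 12 genes, 1 rose and 3 fell in the heterozygous deletion, with *Got2* at -0.19 (adjusted p = 0.0144) and *Gpt2* at -0.33 (adjusted p = 0.00241) among the latter.

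Among amino acid transporters 6 of 10 rose and none fell (median 0.24), and among cytosolic aminoacyl-tRNA synthetases, which charge tRNAs with their amino acids, 16 of 20 rose and none fell (median 0.19). The leucine transporter *Slc7a5* rose by 0.58 (adjusted p = 3.19e-09) and its relative *Slc7a6* by 0.51 (adjusted p = 3.31e-07). The alanyl-tRNA synthetase *Aars* rose by 0.66 (adjusted p = 3.06e-10), from 482 and 499 CPM in WT to 788 and 767, and *Farsa*, a subunit of the phenylalanyl-tRNA synthetase, by 0.42 (adjusted p = 7.49e-07). These 4 genes lie on chromosome 8. Outside it, *Slc7a1*, a transporter of arginine and lysine, rose by 0.44 (adjusted p = 1.77e-06) and the isoleucyl-tRNA synthetase *Iars* by 0.31 (adjusted p = 7.62e-06), both chosen after their values were seen. In the heterozygous deletion 2 transporters, *Slc7a5* (-0.21, adjusted p = 0.00346) and *Slc7a6* (-0.18, adjusted p = 0.0476), and 1 synthetase, *Aars* (-0.23, adjusted p = 0.00132), fell and none rose.

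Without the genes of chromosome 8, the counts in the homozygous deletion were 5 of 10 higher for the one-carbon enzymes (median 0.21), 3 of 10 higher and 2 lower for the other synthetic enzymes (0.058), 4 of 8 higher for the transporters (0.16) and 13 of 17 higher for the synthetases (0.18). In the heterozygous deletion without that chromosome, 0 of 10 one-carbon enzymes were higher and 1 was lower by the edgeR test. By the same test there were 1 higher and 1 lower of 10 other synthetic enzymes, 0 of 8 transporters and 0 of 17 synthetases. The shares of all genes given above include that chromosome.

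**Figure D4:**
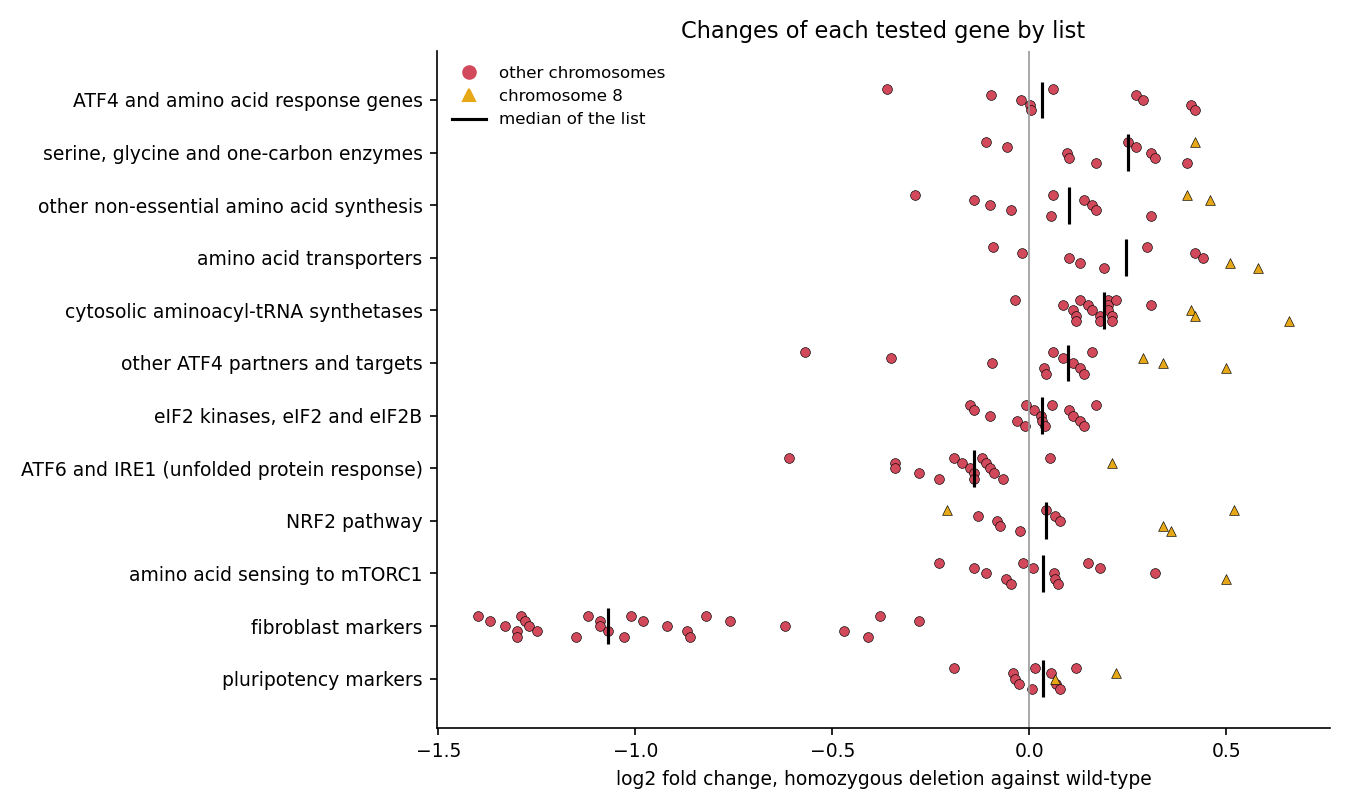
Fitted log2 fold change in the homozygous deletion against WT (horizontal axis) for each tested gene of each list, with genes of chromosome 8 as triangles and the median of each list as a bar. The synthetases (median 0.19), one-carbon enzymes (0.25) and transporters (0.24) lie mostly to the right of 0, the ATF6 and IRE1 genes (-0.14) mostly to the left, and the fibroblast markers far to the left (-1.07).

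Of 14 other partners and targets of ATF4 tested, 3 rose and 1 fell in the homozygous deletion (median 0.096), and without chromosome 8 this was 1 higher and 1 lower of 11 (median 0.061). *Eif4ebp1*, an inhibitor of cap-dependent translation, rose by 0.50 (adjusted p = 3.51e-07) and *Herpud1*, of endoplasmic reticulum degradation, by 0.34 (adjusted p = 0.0015), both on chromosome 8. *Nupr1*, a stress-induced chromatin protein, fell by 0.57 (adjusted p = 6.75e-05) and was lower by 0.54 in the heterozygous deletion as well (adjusted p = 0.000479). The pair on chromosome 8 fell in the heterozygous deletion, *Eif4ebp1* by 0.25 (adjusted p = 0.00464) and *Herpud1* by 0.42 (adjusted p = 0.00137). In all 3 of the 14 fell and none rose there (median -0.20), and 1 of 11 fell without chromosome 8.

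Upstream of ATF4, 3 of 16 genes for eIF2, its kinases, its exchange factor and regulators of these rose and none fell (median 0.032), against 10.9% of all genes higher. They included *Gcn1*, the activator of GCN2, at 0.17 (adjusted p = 0.0146) and *Eif2s2*, the beta subunit of eIF2, at 0.14 (adjusted p = 0.0371). The ATF6 and IRE1 branches of the unfolded protein response, which run beside the PERK branch that leads to ATF4, were lower: 8 of 17 genes fell and 1 rose, with a median of -0.14. *Xbp1*, the target of IRE1 splicing, fell by 0.61 (adjusted p = 5.15e-07), from 42.9 and 46.5 CPM in WT to 28.7 and 29.6, and by 0.23 in the heterozygous deletion (adjusted p = 0.0329). *Creld2*, a secreted stress protein, fell by 0.34 (adjusted p = 0.000239), while the chaperone *Calr*, on chromosome 8, rose by 0.21 (adjusted p = 0.000388). Fibroblast markers were also lower in the homozygous deletion, and their part in these falls was not tested. In the heterozygous deletion 1 of the 17 genes fell and none rose (median 0.021), while 21 of 27 fibroblast markers were lower (median -0.48).

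Of 11 genes of the NRF2 pathway, which shares *Slc7a11* as a target, 3 rose and none fell, and all 3 lie on chromosome 8. *Gsr*, glutathione reductase, rose by 0.52 (adjusted p = 1.99e-08) and *Hmox1*, heme oxygenase, by 0.36 (adjusted p = 4.62e-06). Of the 14 genes that signal amino acids to mTORC1 beside *Sesn2*, 3 rose and 1 fell. The GATOR2 subunits *Wdr59*, on chromosome 8, and *Mios* rose by 0.50 (adjusted p = 3.38e-06) and 0.32 (adjusted p = 0.000297), and *Sesn3*, a relative of *Sesn2*, fell by 0.23 (adjusted p = 0.00746). Without chromosome 8 this list had 2 higher and 1 lower of 13. The 10.9% and 10.5% of all genes include chromosome 8, where 547 of 890 were higher and 18 lower. Among 7 relatives of the 10 genes, *Shmt1* rose and *Sesn3* fell, and the median was 0.061.

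The 10 genes did not share 1 profile over the 6 libraries. On a log2(CPM + 0.5) scale centred on each gene's mean, the root mean square difference from their average profile ran from 0.0575 for *Trib3* to 0.222 for *Ddit3*. The spread from the lowest to the highest library was 0.644 for *Psat1* and 0.609 for *Shmt2*, against 0.0933 for *Atf4*. Among 9316 genes with a mean of at least 10 CPM, those closest to the average profile were *Sephs1* (0.0126), *Riox1* (0.0138), *Eif4a3* (0.0167), *Rps7* (0.0169) and *Ppp1r8* (0.0181). That average profile mixes genes that rose, a gene that fell and genes that did not pass the test.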

How the data were processed

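Raw counts per gene, not normalized, were deposited for 6 poly-A RNA libraries from a stranded kit. The submitters' processing notes name Trimmomatic 0.39, STAR 2.6.1d, SAMtools 1.9, featureCounts 1.6.4 and DESeq2 1.22.2 and the builds mm10 and GRCm38, with no roles. The strand setting and the annotation release are not given in the sources used here. Genotypes and replicate numbers came from the labels, which give 2 libraries per genotype, while the methods state triplicates. Replicates differed by more than sampling noise (chi-square per degree of freedom 2.31 to 3.55), so each was counted once.

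A gene was tested where 2 or more libraries had 10 or more counts. All 6 libraries entered 1 quasi-likelihood fit of genotype in edgeR 4.0.16 (R 4.3.3) with TMM factors, and p-values were adjusted by Benjamini-Hochberg over all genes tested. The fitted common coefficient of variation between replicates was 3.52%. This fit was also run on simulated counts, with the same spread for every gene and changes put only into the homozygous deletion. That run cannot show how the fit handles unequal spread or the shift of a whole chromosome. Positions and exon lengths came from GENCODE annotation of GRCm38, in which 55144 gene identifiers were found, and promoter windows from RefSeq. Alternatives were DESeq2 1.42.0, its size factors, library totals only, other filters, the compared genotypes only, a replicate block, robust estimation and each library left out. Lists without chromosome 8 were added after seeing the data. From each list the 2 highest and 2 lowest fold changes among genes past the test in the homozygous deletion against WT were named. The genes and lists were chosen with earlier results of these data known. Figures were made in Python 3.11.15 with matplotlib 3.10.9. Other experiments of the study were not analysed here.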

Additional observations from a re-analysis of the deposited data

Results flagged for a closer look

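For 4 of the 10 genes the difference between the homozygous and the heterozygous deletion was itself past the edgeR test. The log2 fold change of homozygous against heterozygous libraries was 0.59 for *Psat1*, 0.53 for *Shmt2*, 0.42 for *Asns* and 0.41 for *Phgdh*, with both homozygous libraries above both heterozygous libraries for each. *Psat1* and *Shmt2* were below WT in the heterozygous and above WT in the homozygous deletion, whereas the log2 fold change of *Asns* from WT in the heterozygous deletion was 0.00084. The same comparison moved chromosome 8 genes (585 of 890 higher), 10 of 12 pluripotency markers (higher) and 24 of 27 fibroblast markers (lower), and whether these are linked to the 4 enzymes was not tested.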

How the results depend on the processing

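The calls of *Asns*, *Psat1*, *Phgdh* and *Shmt2* in the homozygous deletion, against WT and against the heterozygous deletion, held under all 14 alternatives. Over the comparisons of single genes with each alternative, 378 kept direction and side of the threshold, 9 lost a call, 7 gained one and 26 changed sign, none of the last past the test in the reported fit. The causes were not tested. With 2 libraries per genotype, a genotype reduced to 1 library is assumed to vary like the others. Genes of few counts, such as *Ddit3*, have wide intervals at this depth.

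Against WT, 871 genes passed the test with 1 allele deleted and 3633 with both, and 4371 passed between the deletions. DESeq2 gave 482, 2265 and 2761. Leaving out 1 library gave 351 to 1302, 2115 to 3604 and 2903 to 4339, and 0 to 2 of the 10 genes in the heterozygous deletion. The differences between the replicates of a genotype correlated between genotypes at 0.0261, -0.0944 and 0.00865 over genes. Each genotype gave only 1 such difference, so this cannot tell whether same-numbered libraries were handled together. The replicate block gave 816, 3447 and 4150 genes and 2, 5 and 5 of the 10 genes, the added call being *Ddit3* between the deletions (adjusted p = 0.0467).

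Signs changed as follows, in log2 fold changes. In the heterozygous deletion against WT, *Asns* was at -0.0076 with DESeq2, -0.0075 with its size factors, -0.0055 with no filter, -0.04 without WT replicate 1 and -0.02 without heterozygous replicate 2. With 1 library left out, *Asns* ran from -0.04 to 0.04, *Slc7a11* from -0.18 to 0.08 (without WT replicate 1) and *Ddit3* from -0.15 to 0.04 (without heterozygous replicate 2). In the homozygous deletion against WT, *Sesn2* was at -0.05 with library totals, -0.0036 with no filter, -0.0004 with at least 1 CPM in 2 libraries, -0.00076 with the compared genotypes only, -0.0077 without WT replicate 1 and from -0.03 (without homozygous replicate 1) to 0.04 with a library left out. Likewise *Trib3* was at -0.06, -0.0061, -0.0028 and -0.0031 under those 4 settings, -0.02 without WT replicate 2 and from -0.11 (without homozygous replicate 1) to 0.11 with a library left out. In the same way *Slc7a11* ran from -0.13 to 0.12 (without WT replicate 1) and *Chac1* from -0.20 to 0.0064 (without homozygous replicate 2). Between the deletions, library totals gave -0.04 for *Chac1*, -0.03 for *Slc7a11* and -0.03 for *Atf4*, and *Chac1* was at -0.0022 without heterozygous replicate 1 and ran from -0.08 (without homozygous replicate 1) to 0.13.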
